A study of Homo sapiens with 6 samples.

Results

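Innate immune and antiviral defense genes were described in A549 cells, a long-established line from a human lung adenocarcinoma, after 48 hours with 50 nM mitoxantrone or with DMSO. Mitoxantrone is an anthracenedione that poisons DNA topoisomerase II, and DMSO, diluted 1 in 1000, was the solvent control. Each group had 3 RNA sequencing libraries of this line, and the labels name no genetic change in either group. By its title the series concerns immunogenic senescence in lung cancer. The genes were the rows of the deposited table of changed genes whose annotation holds "innate immune response" or "defense response to virus", alone or inside a longer term. Of the 4546 genes listed there, 126 met this, and 15 were left out by symbol. The rule for leaving out names the HLA, histone, dual-specificity phosphatase and keratin families and a list of single genes. That list holds some of the best-known interferon-stimulated genes, such as OAS1, ISG15, BST2 and TRIM22. The remaining 111 genes are described below.

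Innate immunity is the defense that a cell mounts without prior exposure. Receptors on membranes, such as Toll-like receptors, or in the cytosol bind microbial molecules or misplaced nucleic acid, and adaptors and kinases pass the signal to NF-kB and interferon regulatory factors. Interferons then switch on antiviral effectors through STAT factors, while secreted proteins such as complement mark microbes for destruction. Lung epithelial cells, from which A549 derives, make many of these proteins themselves.

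The genes that act directly on viruses or microbes were mostly higher with mitoxantrone, while the NF-kB and stress kinase genes of the set were mostly lower. Of the 111 genes, 80 were higher and 31 lower with mitoxantrone, so 72.1% were higher, against 58.9% of all 4546 listed genes (41.1% were lower). Each had an adjusted p under 0.05 in the quasi-likelihood F-test of edgeR, as did 100% of the 4546 listed genes, because the authors' table holds only genes that had passed a threshold on the same libraries. Passing therefore adds no independent evidence, and a gene that is not listed may have changed by less than the threshold or not at all. In all 111 genes the mitoxantrone and DMSO libraries did not overlap, as in 98.3% of the listed genes. The median log2 fold change, mitoxantrone over DMSO, was 2.02 among the higher genes and -1.57 among the lower ones, beside 1.87 and -1.52 over all listed genes. The higher median was 2.02 also with the genes that had 0 DMSO reads set at their bound (1.83 over all listed genes).

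Some of the genes that were higher had few reads, though a smaller part of them than over all listed genes. Among the 82 genes with a mean normalized count (reads divided by the library's size factor) of at least 50 in the higher group, 53 were higher and 29 lower. This is 64.6% higher, beside 47.2% of the 2868 listed genes above that minimum (52.8% lower). Of the 80 higher genes 53 thus reached the minimum, beside 1353 of the 2677 higher genes of the whole table. A mean under 10 in both groups was found in 11 genes, of which 10 were higher. Over all 4546 listed genes 607 had such a mean, and 527 of these were higher. On the FPKM scale, which also divides by gene length, 37 genes reached a mean of 10 in at least 1 group and 41 stayed under 1 in both. The FPKM counts were made for the set only. The highest mean FPKM in mitoxantrone cells was that of POLR2L, a subunit shared by the nuclear RNA polymerases, with 249 in mitoxantrone cells and 115 in DMSO cells, while in DMSO cells DDIT4 and TRIB3 stood highest, at 108 and 14.8 in mitoxantrone cells and 378 and 356 in DMSO cells. The table compares RNA per library, so fewer cells that express a gene and less RNA per cell cannot be told apart.

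By annotation, 75 genes held the innate immune term alone, 53 higher and 22 lower, and 21 held the antiviral term alone, 17 higher and 4 lower. Both terms were held by 15 genes, 10 higher and 5 lower. Some other terms that the genes shared divided them more sharply. Of the 12 genes annotated for response to virus, 12 were higher, beside 22 of 30 listed genes with that term. Complement activation had 7 of 7 higher, beside 8 of 8. Of the 13 genes annotated for TRIF-dependent Toll-like receptor signaling, 4 were higher and 9 lower, beside 4 and 13 in the whole table. The wider term for Toll-like receptor signaling was nearly even, with 9 higher and 10 lower, beside 9 and 14. MyD88-dependent Toll-like receptor signaling had 8 higher and 7 lower, beside 8 and 11.

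**Figure D1:**
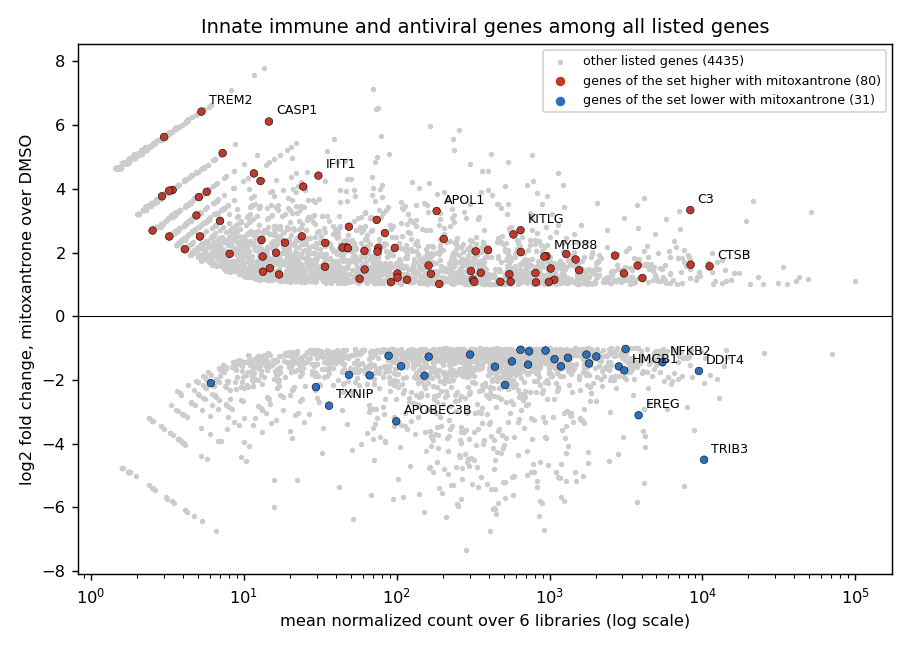
Log2 fold change (mitoxantrone over DMSO, edgeR) against the mean normalized count over 6 libraries (log scale). Each point is a listed gene, with 80 genes of the set higher (red), 31 lower (blue) and 4435 other listed genes in grey; C3 and CTSB are high and abundant, TRIB3 is abundant and has the lowest value of the set, -4.51.

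**Figure D2:**
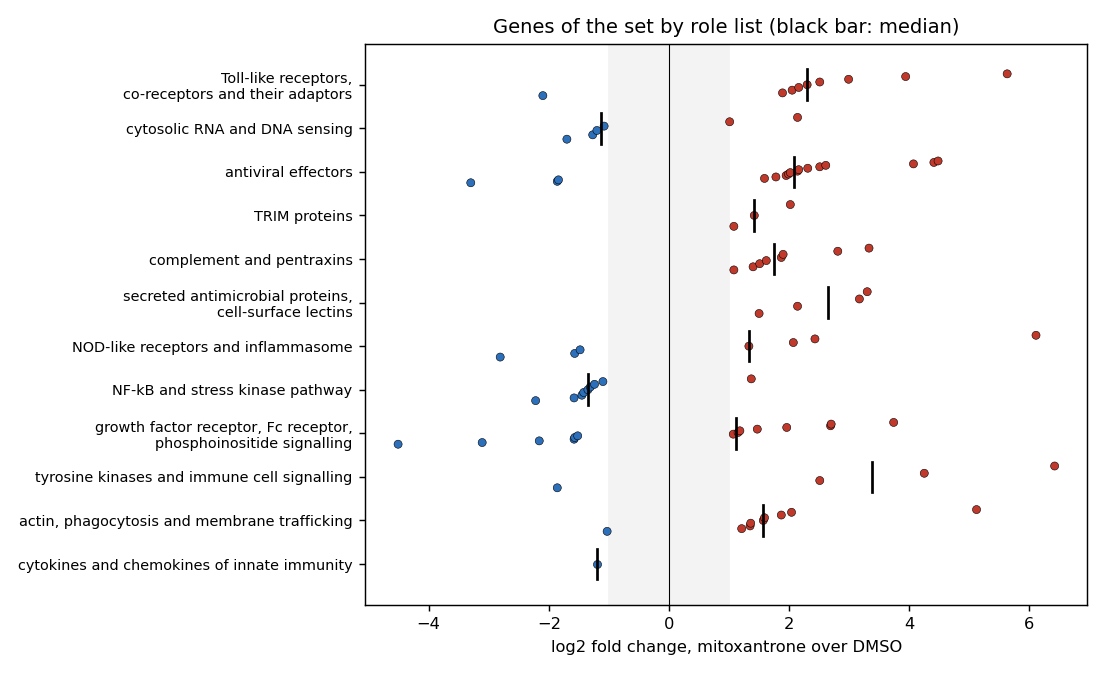
Log2 fold change (mitoxantrone over DMSO) of the genes in each role list, 1 point per gene, red higher and blue lower, with the median as a black bar. The grey band covers changes below the smallest in the deposited table; the complement list has 8 points to the right of 0 and none to the left, and the NF-kB and stress kinase list 1 to the right and 8 to the left. The 22 genes in no list are not drawn.

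Antiviral effectors, the proteins that block viral entry, replication or assembly, were mostly higher. Of the 69 genes of this role list 27 were listed, 22 higher and 5 lower, and 16 belonged to the set, 13 higher and 3 lower. Their median log2 fold change was 2.08. IFIT1, which binds viral RNA without the host's cap methylation, had 53.2, 59.8 and 63.3 normalized counts in the mitoxantrone libraries, against 3.43, 2.79 and 1.72 in the DMSO libraries. The groups lay far apart, at means of 58.8 ± 5.09 and 2.65 ± 0.861 (SD, n = 3 here and below), a 21.3-fold rise (log2 fold change 4.41 ± 0.38 SE; edgeR, adjusted p = 3.7e-14). Its neighbours in the same cluster on chromosome 10 rose less. IFIT2 had 76.2, 83.5 and 70.4 in mitoxantrone libraries, against 12, 14.9 and 24.1 in DMSO libraries, and IFIT3 had 126, 117 and 128 against 34.3, 19.5 and 29.3. Both were higher in every mitoxantrone library, with log2 fold changes of 2.16 ± 0.25 and 2.14 ± 0.20. By GENCODE 29 the IFIT genes lie within the span of LIPA, a listed gene on the opposite strand. Since the protocol does not say whether strand was kept, the origin of reads over these spans is uncertain.

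The guanylate-binding GTPases GBP1 and GBP3, neighbours on chromosome 1, were also higher. GBP3 averaged 144 ± 15.3 in mitoxantrone cells and 23.5 ± 1.3 in DMSO cells (log2 fold change 2.61 ± 0.19), and GBP1 30.9 ± 6.48 and 6.18 ± 1.73 (2.31 ± 0.38). The family is made of close paralogs, so reads may be split among them with error. UBA7, the activating enzyme for conjugation of ISG15, had 48.4, 39.5 and 51 normalized counts in mitoxantrone libraries, against 2.57, 1.86 and 3.45 in DMSO libraries. UBE2L6, the conjugating enzyme of the same pathway, averaged 780 ± 54.1 in mitoxantrone cells and 312 ± 10.7 in DMSO cells. Their log2 fold changes were 4.07 ± 0.41 and 1.32 ± 0.09, and on the FPKM scale UBA7 stayed the scarcer, at means of 0.513 in mitoxantrone cells and 0.03 in DMSO cells beside 17.8 and 7.59 for UBE2L6.

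PML, the organizer of nuclear bodies, and ZC3HAV1, which binds CpG-rich viral RNA, had mean FPKM values of 4.13 and 12.5 in mitoxantrone cells and of 1.08 and 3.42 in DMSO cells. ZC3HAV1 had 2008, 2137 and 2000 normalized counts in mitoxantrone libraries, against 498, 517 and 569 in DMSO libraries, a 3.88-fold rise. PML averaged 1040 ± 96.5 in mitoxantrone cells and 257 ± 28.1 in DMSO cells, 4.05-fold. OASL, a relative of the oligoadenylate synthetases that lacks their activity, rose 5.69-fold (40.9 ± 6.95 in mitoxantrone cells against 7 ± 3.65 in DMSO cells). Both of the TRIM ubiquitin ligases beside PML in the set were higher, TRIM21, an intracellular antibody receptor, 2.68-fold and TRIM32 2.11-fold. TRIM32 lies within the listed gene ASTN2 on the opposite strand, and it missed the threshold of edgeR's glmTreat against a 2-fold change (adjusted p = 0.065), a test that 80.6% of listed genes passed and 15 of the 111 did not. The whole TRIM list divided evenly, with 7 listed genes higher and 7 lower of 44.

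The 3 genes of the antiviral effector list that fell in the set were APOBEC3B, SLFN11 and BCL2. SLFN11, which blocks translation of viral RNA and DNA replication under stress, had 62.9, 73.4 and 60.2 in mitoxantrone libraries, against 244, 224 and 247 in DMSO libraries (log2 fold change -1.86 ± 0.14). BCL2, an inhibitor of apoptosis that the list also holds, averaged 21.1 ± 0.503 in mitoxantrone cells and 76.2 ± 5.52 in DMSO cells (-1.84 ± 0.23).

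The APOBEC3 cytidine deaminases, which mutate viral DNA and lie in 1 cluster on chromosome 22, moved in opposite directions. APOBEC3B had 20.6, 12.4 and 21.4 normalized counts in mitoxantrone libraries, against 151, 206 and 184 in DMSO libraries, and was 9.85-fold lower with mitoxantrone (log2 fold change -3.30 ± 0.21; edgeR, adjusted p = 2.6e-18). The next listed gene of the cluster, APOBEC3C, had 2182, 2382 and 2326 in mitoxantrone libraries, against 689, 630 and 684 in DMSO libraries, 3.44-fold higher. Per gene length, APOBEC3B averaged 0.48 FPKM in mitoxantrone cells and 5.08 in DMSO cells, and APOBEC3C 41.0 and 12.6, so APOBEC3C was the more abundant in both groups. APOBEC3D (26.1 ± 5.58 in mitoxantrone cells against 6.37 ± 4.31 in DMSO cells) and APOBEC3H were higher too. APOBEC3H had 22, 17 and 21 reads in mitoxantrone libraries, against 3, 0 and 0 in DMSO libraries, a ratio of normalized reads of 25.3 (exact 95% interval 8.24 to 126, which covers counting error only). Without DMSO 1, which held all its DMSO reads, the fitted log2 fold change of APOBEC3H was 7.47 in place of 4.48, and that of APOBEC3D 2.66 in place of 1.99. These paralogs are alike in sequence and the deposited spans of APOBEC3C and APOBEC3D overlap, so their reads may be assigned with error. PDGFB, a growth factor gene beyond APOBEC3H on the same chromosome, was lower, at -2.16 ± 0.10.

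**Figure D3:**
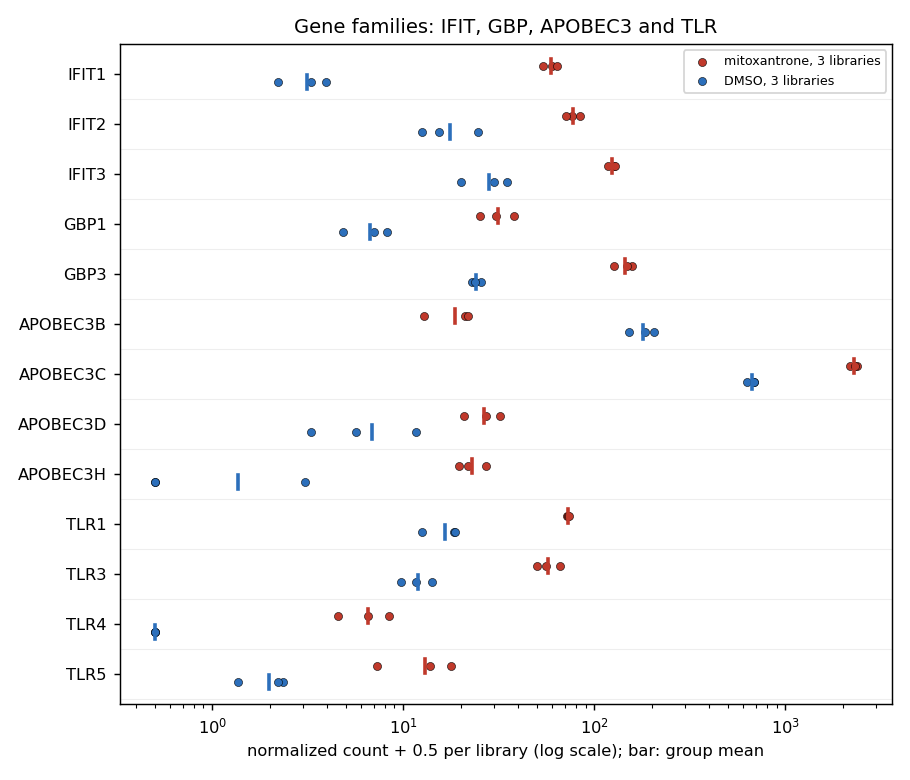
Normalized count plus 0.5 per library (log scale) for genes of the IFIT, GBP, APOBEC3 and TLR families, mitoxantrone libraries in red above DMSO libraries in blue, bars at the group means. The red points lie to the right of the blue ones in every gene shown except APOBEC3B, whose mitoxantrone libraries lie between 12.4 and 21.4 counts and whose DMSO libraries lie between 151 and 206.

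Because several effectors of the set are known interferon targets, the promoters were searched for the interferon-stimulated response element (ISRE, written as GAAA, any 2 bases and GAAA) and the gamma-activated site, TTCNNNGAA, on both strands. RefSeq promoters (GRCh38.p14, 250 bases before to 50 after the start) were matched for 75 of the 111 genes. The first motif was found in 8 of these (10.7%), CFB, GBP1, GBP3, IFIT1, IFIT3, MYD88, TLR3 and TRIM21, beside 3.57% of 35116 promoters in the table. All 8 were among the 52 matched genes that were higher (15.4%), and 0 of the 23 lower genes held it. The second motif was found in 12 of the 75, that is 10 of 52 that were higher and 2 of 23 that were lower, beside 7.66% of all promoters. It is shorter than the first and was found in 4 of the same promoters, those of CFB, GBP3, MYD88 and TLR3, where the matches overlap in MYD88 alone. A match describes letters only, and no match says nothing of a factor.

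The 250 bases before the start of IFIT1 (chr10:89392373-89392622, plus strand), IFIT3 (chr10:89327747-89327996, plus strand) and GBP1 (chr1:89065209-89065458, minus strand) are shown 5′ to 3′ because these effectors rose and carry the motif upstream. Capitals mark each ISRE match, here on the opposite strand.
IFIT1: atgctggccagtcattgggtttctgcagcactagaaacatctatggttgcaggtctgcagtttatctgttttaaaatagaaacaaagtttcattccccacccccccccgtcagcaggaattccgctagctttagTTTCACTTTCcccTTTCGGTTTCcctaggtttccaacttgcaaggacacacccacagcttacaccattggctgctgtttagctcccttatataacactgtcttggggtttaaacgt
IFIT3: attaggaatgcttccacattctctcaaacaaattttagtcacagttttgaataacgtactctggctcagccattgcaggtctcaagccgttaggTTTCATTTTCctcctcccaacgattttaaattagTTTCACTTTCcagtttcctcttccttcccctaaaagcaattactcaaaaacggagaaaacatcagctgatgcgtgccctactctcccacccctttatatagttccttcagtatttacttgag
GBP1: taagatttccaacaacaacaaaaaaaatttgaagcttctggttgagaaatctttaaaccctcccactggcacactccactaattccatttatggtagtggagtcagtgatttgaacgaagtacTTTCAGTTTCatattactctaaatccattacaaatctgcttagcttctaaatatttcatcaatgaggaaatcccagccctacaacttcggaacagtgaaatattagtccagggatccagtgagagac
IFIT1 and IFIT3 held 2 matches each, at 116 and 103 bases and at 156 and 122 bases before the start, and GBP1 held 1, at 127 bases.

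The 30 bases around the match in the other genes are shown with the same capitals, for CFB (chr6:31945945-31945974, plus strand), GBP3 (chr1:89022845-89022874, minus strand), MYD88 (chr3:38138590-38138619, plus strand), TLR3 (chr4:186069142-186069171, plus strand) and TRIM21 (chr11:4393663-4393692, minus strand).
CFB: acttctgcagTTTCTGTTTCcttgactggc
GBP3: aaagaagtacTTTCAGTTTCattaggctct
MYD88: gcgcttctcgGAAAGCGAAAgccggcgggg
TLR3: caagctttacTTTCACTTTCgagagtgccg
TRIM21: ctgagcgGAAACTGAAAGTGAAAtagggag
GBP1 and GBP3 share the letters TTTCAGTTTC, TRIM21 holds 2 overlapping matches, and MYD88 and TRIM21 carry the motif on the strand shown. CFB and MYD88 hold the match 140 and 61 bases before the start.

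Toll-like receptors, their co-receptors and their adaptors were mostly higher, though several from few reads. Of the 32 genes of this list 10 were listed, and 9 belonged to the set, 8 higher and 1 lower. MYD88, the adaptor that most Toll-like receptors share, was the most abundant of them per gene length (19 FPKM in mitoxantrone cells, 5.43 in DMSO cells), with 1597, 1500 and 1416 normalized counts in mitoxantrone libraries, against 385, 399 and 433 in DMSO libraries. The lowest mitoxantrone library stood well above the highest DMSO library, and the rise was 3.70-fold (log2 fold change 1.89 ± 0.08; edgeR, adjusted p = 1.4e-23). TLR3, the endosomal receptor for double-stranded RNA, had 49.6, 55.3 and 65.3 in mitoxantrone libraries, against 13.7, 9.29 and 11.2 in DMSO libraries, 4.93-fold higher. TLR1, which pairs with TLR2 on lipopeptides, averaged 72.4 ± 1.04 in mitoxantrone cells and 16.1 ± 3.45 in DMSO cells. TLR1 shares its span with TLR6 on the same strand by GENCODE 29, so reads over their shared bases are uncertain. CD14, the co-receptor that hands lipopolysaccharide to TLR4, averaged 99 ± 5.92 in mitoxantrone cells and 23.9 ± 4.08 in DMSO cells.

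TLR4, the lipopolysaccharide receptor, had 5, 7 and 4 reads in mitoxantrone libraries and 0 in each DMSO library, at least 6.74-fold higher against a floor of 3 reads over the group. TLR5, the flagellin receptor, had 11, 6 and 17 reads in mitoxantrone libraries, against 1, 2 and 2 in DMSO libraries. IRAK3, a brake on signaling below these receptors, had 15 reads in mitoxantrone libraries against 3 in DMSO libraries, a ratio of 6.32 (95% interval 1.79 to 34.1), and its call was lost without mitoxantrone 2 (log2 fold change 1.78 in place of 2.51). CD36, a scavenger receptor, had 17 reads in mitoxantrone libraries and 1 in DMSO libraries, a ratio of 21.5 (95% interval 3.37 to 898), with a fitted value of 5.66 in place of 3.94 without DMSO 1. The gene that fell, LBP, which carries lipopolysaccharide to CD14, had 2 reads in every mitoxantrone library against 7, 8 and 19 in DMSO libraries, and it lost its call without DMSO 3. TLR2, TLR6, TLR7, TLR8 and TLR9 were not listed.

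Cytosolic sensors of nucleic acid were divided. Of 40 genes in this list 8 were listed, and of the 6 in the set 2 were higher and 4 lower. The list writes cGAS and STING with other symbols than the deposited MB21D1 and TMEM173, so these counts do not cover them. Both deposited symbols are among those left out of the set. TMEM173 was counted with the listed antiviral effectors and was higher, at 37.1 ± 9.98 in mitoxantrone cells and 5.6 ± 1.15 in DMSO cells. IFI16, a sensor of double-stranded DNA, had 138, 174 and 164 normalized counts in mitoxantrone libraries, against 43.7, 37.2 and 26.7 in DMSO libraries (log2 fold change 2.14 ± 0.18). TREX1, the exonuclease that removes cytosolic DNA, averaged 254 ± 15.1 in mitoxantrone cells and 126 ± 19.1 in DMSO cells. At 1.01 ± 0.13 it was the smallest rise of the set and missed the glmTreat threshold (edgeR, adjusted p = 0.22). The RNA helicase sensors DDX58 and IFIH1 and their adaptor MAVS were not listed.

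RNA polymerase III also transcribes AT-rich DNA in the cytosol into an RNA ligand of such helicases. Its own subunit genes POLR3C, POLR3D and POLR3G were lower, while POLR2L, whose product it shares with the other nuclear RNA polymerases, was 2.30-fold higher. POLR3C averaged 605 ± 7.14 in mitoxantrone cells and 1279 ± 25.8 in DMSO cells, POLR3D 1056 ± 64.6 and 2433 ± 94.6, and POLR3G 94.6 ± 15.2 and 229 ± 28.3. The log2 fold changes of the 3 POLR3 genes lay between -1.08 and -1.27, and POLR3C missed the glmTreat threshold (edgeR, adjusted p = 0.065). HMGB1, a chromatin protein that acts as an alarm signal when released, had 1200, 1567 and 1580 in mitoxantrone libraries, against 4549, 4475 and 5122 in DMSO libraries, 3.25-fold lower. Its paralog HMGB2, which is not in the set, was 33.9-fold lower, at 67.6 ± 7.59 in mitoxantrone cells and 2288 ± 95.2 in DMSO cells. HMGB1 has processed pseudogenes, so its count is uncertain to that extent.

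No interferon, interferon receptor or interferon regulatory factor gene was in the set. Of the 33 genes of that list 4 were listed, STAT3 higher and IRF8, JAK2 and SOCS3 lower. SOCS3, a feedback inhibitor of JAK kinases, averaged 391 ± 37.3 in mitoxantrone cells and 2948 ± 381 in DMSO cells, 7.55-fold lower. STAT2, IRF1, IRF7, IRF9 and IFNB1 were not listed.

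Of the NOD-like receptor and inflammasome list, with 10 of 40 genes listed, 7 were in the set. The inflammasome genes were higher except TXNIP, and the inhibitor of apoptosis genes of the same list were lower. Inflammasomes are complexes in which a sensor recruits the adaptor PYCARD to activate the protease CASP1. NLRP1, a sensor, had 340, 323 and 365 normalized counts in mitoxantrone libraries, against 51.4, 57.6 and 81.9 in DMSO libraries, a 5.37-fold rise (edgeR, adjusted p = 2.3e-19). PYCARD averaged 640 ± 60.7 in mitoxantrone cells and 152 ± 4.37 in DMSO cells, a 4.21-fold rise, with an antisense gene over the same span. CASP1 had 26, 29 and 22 reads in mitoxantrone libraries, against 1, 0 and 0 in DMSO libraries, a ratio of 97.3 (exact 95% interval 17.0 to 3890). Leaving out DMSO 1 moved its fitted log2 fold change to 7.83 in place of 6.11, and on the FPKM scale it stayed low, at means of 0.393 in mitoxantrone cells and 0.00333 in DMSO cells. NLRC5, an activator of MHC class I genes, rose 2.52-fold. TXNIP, which binds the sensor NLRP3 and inhibits thioredoxin, was lower, at 8.85 ± 2.88 in mitoxantrone cells and 63.3 ± 13.9 in DMSO cells.

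BIRC2 and BIRC3, neighbouring ubiquitin ligase genes on chromosome 11 that act in receptor complexes above NF-kB, fell together. BIRC2 had 533, 634 and 622 in mitoxantrone libraries, against 1860, 1759 and 1712 in DMSO libraries, and BIRC3 797, 1035 and 1031 against 3041, 2593 and 2376. Their log2 fold changes were -1.57 ± 0.08 and -1.48 ± 0.09.

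The NF-kB and stress kinase genes of the set were lower, 8 of 9, and 10 of the 13 listed genes of this list of 66 were lower. TRAF2, the adaptor that holds BIRC2 and BIRC3 at tumor necrosis factor receptors, had 1564, 1404 and 1315 normalized counts in mitoxantrone libraries, against 4333, 4547 and 3882 in DMSO libraries. NFKB2, the precursor of the non-canonical p52 subunit, had 3075, 2954 and 2804 in mitoxantrone libraries, against 8346, 8419 and 7305 in DMSO libraries. NFKB1, the precursor of p50, averaged 760 ± 17 in mitoxantrone cells and 1879 ± 185 in DMSO cells. In each the groups were far apart, with falls of 2.98-fold, 2.73-fold and 2.47-fold (edgeR, adjusted p = 1.3e-22, 6.5e-23 and 7.6e-19). MAP3K14, the kinase of the non-canonical pathway, which is not in the set, was 2.77-fold lower. The other listed genes outside the set went both ways, with NFKBIE 2.21-fold lower, NFKBIZ 2.3-fold higher and PPP2R1A 2.03-fold higher. RELA, RELB and the inhibitor gene NFKBIA were not listed.

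The transcription factors and kinases below the stress kinases were lower too. CREB1 averaged 608 ± 37.4 in mitoxantrone cells and 1550 ± 111 in DMSO cells, its relative ATF1 308 ± 57.3 and 826 ± 18.3, and MEF2A 466 ± 60.5 and 1004 ± 48.8. RPS6KA5, a kinase that phosphorylates CREB1, fell to 52.5 ± 7.04 in mitoxantrone cells against 125 ± 3.88 in DMSO cells, and overlaps a listed gene on the opposite strand. RPS6KA2, a ribosomal S6 kinase, averaged 10.3 ± 6.03 in mitoxantrone cells and 48.9 ± 15.7 in DMSO cells. MAPK11, a p38 kinase, was the gene that rose, 2.58-fold, to 512 ± 23.5 in mitoxantrone cells against 199 ± 12.6 in DMSO cells. These genes carry the terms for signaling below several Toll-like receptors, so those terms hold both the receptors that rose and the factors that fell.

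**Figure D4:**
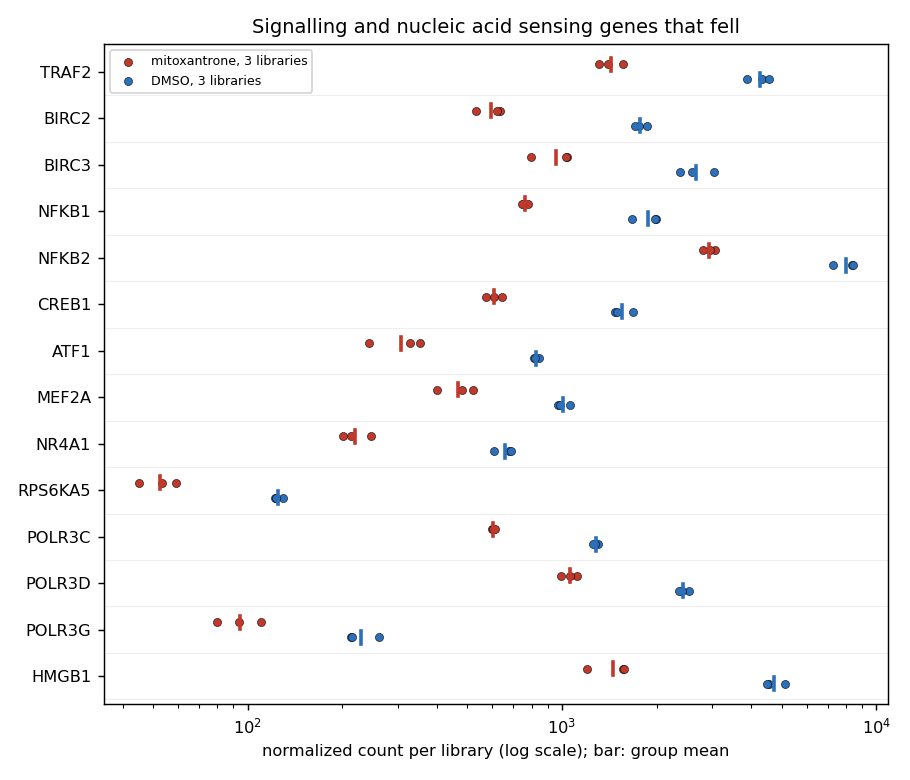
Normalized count per library (log scale) of signaling and nucleic acid sensing genes that were lower with mitoxantrone, with mitoxantrone libraries in red above DMSO libraries in blue and bars at the group means. In every gene drawn the 3 red points lie to the left of the 3 blue points; NFKB2 has the most counts and RPS6KA5 the fewest.

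Complement genes of the set were higher without exception, 8 of 8, with a median of 1.75, and 11 of the 51 genes of this list were listed. Complement is a cascade of proteases and binding proteins that coats and lyses microbes. C3, its central component, had 16067, 14474 and 14999 normalized counts in mitoxantrone libraries, against 1494, 1505 and 1520 in DMSO libraries. The DMSO libraries were nearly alike, and the rise was 10.1-fold (log2 fold change 3.33 ± 0.07; edgeR, adjusted p = 1.3e-35). On the FPKM scale C3 averaged 91.6 in mitoxantrone cells and 9.65 in DMSO cells. It shares part of its span with GPR108 on the same strand.

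The proteases that start and amplify the cascade rose less than C3. C1S had 4465, 4074 and 4148 in mitoxantrone libraries, against 1010, 1207 and 1177 in DMSO libraries, and C1R 1529, 1392 and 1435 against 405, 402 and 381. This pair of classical pathway proteases, neighbours on chromosome 12, rose by nearly the same amount, 3.74-fold and 3.67-fold. CFB, the protease of the alternative pathway that binds C3b, averaged 85.2 ± 11.4 in mitoxantrone cells and 12.1 ± 3.98 in DMSO cells, 7.02-fold. MASP2, the protease of the lectin pathway, averaged 19.3 ± 6.76 in mitoxantrone cells and 7.35 ± 1.27 in DMSO cells. By GENCODE 29 C1S overlaps the listed gene EMG1, C1R overlaps C1RL and CFB overlaps C2, so part of these reads is uncertain.

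Inhibitors of complement were higher as well. CLU, clusterin, which blocks the terminal complex, had 13469, 12345 and 12158 in mitoxantrone libraries, against 3931, 4158 and 4281 in DMSO libraries, 3.07-fold. VTN, vitronectin, another inhibitor of that complex that is in no role list and overlaps SARM1 on the opposite strand, averaged 993 ± 87 in mitoxantrone cells and 167 ± 15.2 in DMSO cells, 5.93-fold. C4BPA, which binds C4b, averaged 22 ± 1.66 in mitoxantrone cells and 7.62 ± 4.01 in DMSO cells. Outside the set, the pentraxin PTX3 was lower, at 2.93 ± 1.66 in mitoxantrone cells and 37.2 ± 8.16 in DMSO cells, so the list as a whole had 9 higher and 2 lower of 11 listed.

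**Figure D5:**
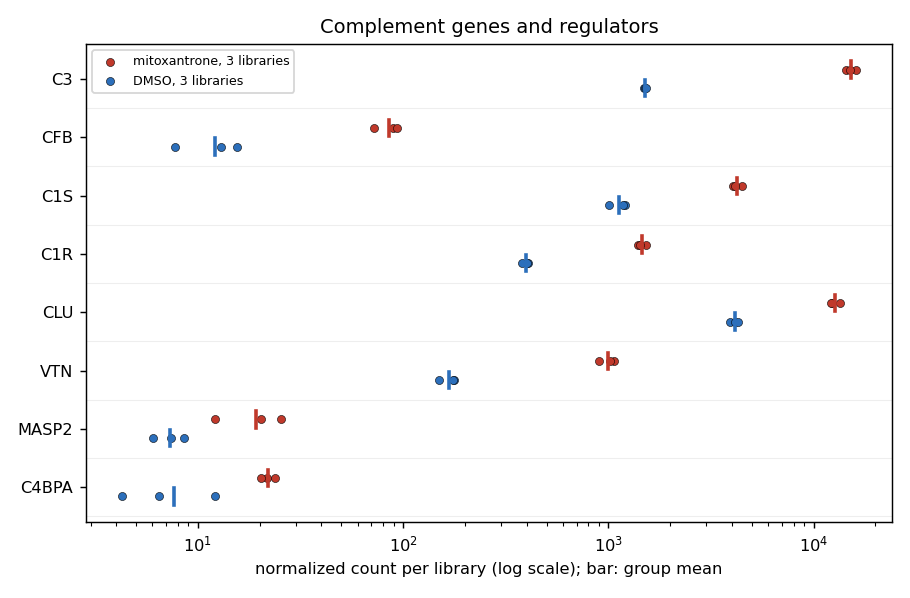
Normalized count per library (log scale) of complement genes and regulators, mitoxantrone libraries in red above DMSO libraries in blue, bars at the group means. The mitoxantrone libraries lie to the right of the DMSO libraries in every gene, from C3 at 14474 to 16067 against 1494 to 1520 down to MASP2, at 12.1 to 25.5 against 6.03 to 8.57.

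Secreted antimicrobial proteins and lectins were higher in 4 of 4 cases, and 5 of the 51 genes of this list were listed. APOL1, which lyses trypanosomes, had 341, 290 and 363 normalized counts in mitoxantrone libraries, against 30.9, 30.7 and 38.8 in DMSO libraries, 9.87-fold higher (edgeR, adjusted p = 1.3e-22). LGALS3, galectin-3, averaged 1506 ± 85.7 in mitoxantrone cells and 533 ± 8.31 in DMSO cells, and LCN2, which binds the siderophores that bacteria use to take up iron, 78.3 ± 14.2 and 17.7 ± 4.42. DMBT1, a mucosal scavenger receptor protein, had 24 reads in mitoxantrone libraries and 3 in DMSO libraries, a ratio of 10.1 (95% interval 3.07 to 52.4), and its fitted value was 4.03 in place of 3.17 without DMSO 2. SAA1, an acute-phase protein gene with close paralogs and in no role list, had 17 reads in mitoxantrone libraries and 1 in DMSO libraries, a ratio of 21.5 (95% interval 3.37 to 898), with a fitted value of 5.68 in place of 3.96 without DMSO 1.

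Among genes of growth factor, Fc receptor and phosphoinositide signaling, which the annotation counts as innate immune through shared pathways, 8 were higher and 6 lower, and of all 132 genes of this list 20 were listed, 12 higher and 8 lower. TRIB3, a pseudokinase that binds AKT and is a known target of the integrated stress response, had 928, 795 and 875 normalized counts in mitoxantrone libraries, against 20100, 20449 and 18466 in DMSO libraries. It had the largest fall of the set, 22.7-fold (log2 fold change -4.51 ± 0.07; edgeR, adjusted p = 2.2e-38). EREG, epiregulin, a ligand of the EGF receptor, had 607, 826 and 947 in mitoxantrone libraries, against 7501, 6856 and 6239 in DMSO libraries, 8.62-fold lower. Its relative AREG, outside the set, was 7.34-fold lower, while NRG4, a ligand of ERBB4, averaged 79.2 ± 17 in mitoxantrone cells and 35.1 ± 8.6 in DMSO cells. NRG4 missed the glmTreat threshold (edgeR, adjusted p = 0.088). KITLG, the ligand of the receptor KIT, had 956, 1166 and 1240 in mitoxantrone libraries, against 174, 176 and 167 in DMSO libraries, 6.50-fold higher.

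Other genes of this list that fell were the transcription factor genes NR4A1, 3.0-fold, and NFATC2, 2.97-fold, and CDKN1B, which encodes the p27 inhibitor of cyclin-dependent kinases, 2.87-fold. CDKN1B averaged 374 ± 42.7 in mitoxantrone cells and 1074 ± 18.1 in DMSO cells. The fibroblast growth factor genes FGF1, FGF17 and FGF18 were higher from 35 or fewer reads over the mitoxantrone libraries. FGF17 had 12 reads in mitoxantrone libraries and 2 in DMSO libraries, a ratio of 7.58 (95% interval 1.69 to 69.8). FGF18 had 25 reads in mitoxantrone libraries and 2 in DMSO libraries, a ratio of 15.8 (95% interval 3.94 to 138), with a fitted value of 6.23 in place of 3.74 without DMSO 1. DDIT4, an inhibitor of mTORC1 that is annotated for antiviral defense and is in no role list, had 4609, 4362 and 4309 in mitoxantrone libraries, against 13446, 14760 and 15510 in DMSO libraries, 3.29-fold lower.

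Of the list of tyrosine kinases and immune cell signaling genes, 3 of 4 in the set were higher, each from 5 or fewer reads over the DMSO libraries, and 6 of the 8 listed genes of the 69 were higher. Outside the set, DDR1 and PTPN6 were higher from more counts, at 2717 and 738 in mitoxantrone cells and 1052 and 316 in DMSO cells. ULBP2 was higher too, at 101 ± 9.97 in mitoxantrone cells and 42.5 ± 6.7 in DMSO cells. ULBP1 was 21.5-fold lower, at 23.1 ± 4.57 in mitoxantrone cells and 498 ± 44.6 in DMSO cells. SYK, a kinase below Fc receptors and C-type lectins, had 24, 15 and 27 reads in mitoxantrone libraries, against 1, 1 and 2 in DMSO libraries. TREM2, a lipid receptor of myeloid cells, had 11, 9 and 8 reads in mitoxantrone libraries and 0 in each DMSO library, at least 11.8-fold higher against a floor of 3 reads over the group. FCGR1A, the high-affinity IgG receptor, had 24 reads in mitoxantrone libraries and 5 in DMSO libraries, with a fitted value of 3.98 in place of 2.51 without DMSO 1, and it has close paralogs. LAT2, an adaptor, was lower, at 28.9 ± 8.87 in mitoxantrone cells and 104 ± 12.6 in DMSO cells. The integrin gene ITGAX (CD11c) had 138, 117 and 141 normalized counts in mitoxantrone libraries, against 20.6, 7.43 and 19.8 in DMSO libraries.

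Leukocyte markers were higher as well. Of 20 such markers 4 were listed, CD14, ITGAX, CD8A and CD34, of which CD34 is not in the set, and 4 of 4 were higher. Their summed level was 253.6 to 263.8 normalized counts in mitoxantrone libraries and 41.8 to 56.8 in DMSO libraries, and CD34 was at 0 in each DMSO library. The pan-leukocyte marker PTPRC and the lineage markers CD3E and ITGAM were not listed, so their levels are not known here. Of 11 markers of A549 and other epithelial cells 5 were listed, all higher, with summed levels of 241709 to 263447 in mitoxantrone libraries and 71542 to 81240 in DMSO libraries. The part of other cells in the rises of the blood cell genes was not tested.

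Genes of actin remodeling, phagocytosis and lysosomal proteolysis were higher in 8 of 9 cases, and 13 of 14 listed genes of this list of 64 were higher. CTSB, the lysosomal protease cathepsin B, averaged 113 FPKM in mitoxantrone cells and 40.4 in DMSO cells, with normalized counts of 17560, 16648 and 15855 in mitoxantrone libraries against 5402, 5817 and 5679 in DMSO libraries. CTSS, a relative that trims the MHC class II invariant chain, averaged 529 ± 22.2 in mitoxantrone cells and 128 ± 6.39 in DMSO cells, a 4.11-fold rise beside 2.96-fold for CTSB. CYFIP2, of the WAVE complex that drives actin branching, rose 3.01-fold, BAIAP2, an adaptor that bends membranes, 2.56-fold and CYBA, a subunit of the NADPH oxidase, 2.54-fold. VNN1, a pantetheinase, had 39 reads in mitoxantrone libraries and 1 in DMSO libraries, a ratio of 49.3 (95% interval 8.34 to 2000), with a fitted value of 6.84 in place of 5.12 without DMSO 3. WASF2, the WAVE2 scaffold, was the exception at 2128, 2047 and 2039 in mitoxantrone libraries, against 4398, 4211 and 4055 in DMSO libraries, and missed the glmTreat threshold (edgeR, adjusted p = 0.15).

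IL15, which sustains natural killer cells, was the cytokine gene of the set and averaged 182 ± 23.8 in mitoxantrone cells and 422 ± 15.7 in DMSO cells, 2.30-fold lower. Among other listed cytokine genes CXCL1 was higher, at 1027 ± 8.26 in mitoxantrone cells and 310 ± 16.5 in DMSO cells, and CXCL2 lower, at 216 ± 27.8 and 981 ± 86.3. The list of 41 had 2 listed genes higher and 5 lower.

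Of the 22 genes in none of the role lists 19 were higher. CD40, a receptor of the tumor necrosis factor family, averaged 145 ± 28.9 in mitoxantrone cells and 57 ± 9.5 in DMSO cells. DTX4, a ubiquitin ligase that acts on the kinase TBK1, averaged 435 ± 35.5 in mitoxantrone cells and 196 ± 1.63 in DMSO cells. AP1S1, a clathrin adaptor subunit, was 2.73-fold higher. The falls beside DDIT4 were PPM1B, a phosphatase that acts on TBK1, at 1189 ± 66.2 in mitoxantrone cells and 2859 ± 103 in DMSO cells, and the autophagy gene ATG5, at 420 ± 14.7 and 871 ± 47.6. ATG5 overlaps the listed gene PRDM1 on the opposite strand and missed the glmTreat threshold (edgeR, adjusted p = 0.12). The low genes ABCC9, LZTS1 and MARCO had at most 28 reads over the mitoxantrone libraries. The read ratio was 19 for ABCC9 (95% interval 2.92 to 798; 15 reads in mitoxantrone libraries and 1 in DMSO libraries) and 17.7 for MARCO (4.46 to 153; 28 reads in mitoxantrone libraries and 2 in DMSO libraries). Fitted values of ABCC9 and LZTS1 were 5.51 and 3.58 without DMSO 2 and DMSO 3 in place of 3.77 and 2.10, and LZTS1 lost its call without mitoxantrone 1.

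The recovered library totals were 16681380 to 19352443 reads with mitoxantrone and 20380674 to 21781220 with DMSO, and the biological coefficient of variation between replicates was 6.7%. Mitoxantrone 2 and 3 were closer to each other (chi-square per gene against counting noise 1.78) than to mitoxantrone 1 (4.66 and 4.82), and the DMSO pairs gave 3.59 to 7.09. Among the 53 higher genes with at least 50 counts, mitoxantrone 1 was the highest of its group for 26 and DMSO 1 the lowest of its group for 25. With any 1 library left out, 79 to 80 genes of the set were called higher and 30 to 31 lower. Fold changes depend on the scaling. With size factors re-estimated on the listed genes in DESeq2, which moved the median gene by -0.84 log2, 63 genes of the set were higher and 31 lower, while the whole table gave 1580 higher and 1868 lower. With TMM on the listed genes the shift was -0.26, all 111 kept their calls and 0 reversed under either scaling. Both methods assume that most genes do not change, while every listed gene was selected as changed. These shifts therefore cannot show how far the recovered size factors are off. With the recovered size factors DESeq2 gave 80 higher and 31 lower in the set.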

How the data were processed

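RNA was measured in 6 libraries of A549 cells, 3 with mitoxantrone and 3 with DMSO, grouped by the sample titles. The tools in the submitters' processing notes are HISAT2 2.0.1 with SAMtools 0.1.19, cutadapt 1.9.1, HTSeq 0.6.1, Cufflinks 2.2.1 and DESeq2. A build or annotation is not given in the sources used here. Per the labels' protocols, the RNA was enriched by poly(A) isolation or by removal of rRNA, without saying which, and strand and molecular identifiers are not mentioned. The labels do not tell if the replicates came from separate cultures, so p-values cover only the spread of these libraries, and this may be technical.

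The deposited data are a single table, which holds, per the file headers, raw read counts and FPKM values per library. It also holds the authors' mean normalized count, a signal averaged over the libraries after scaling by size factors. The deposited log2 fold change, its error, a score that is their ratio, and the authors' p-values with adjusted p-values complete each row. It lists only genes with an absolute log2 fold change of at least 1.00 and an adjusted p of at most 0.0497.

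Size factors were recovered from the counts and the deposited means by least squares (relative residual below 1e-09), and library totals from FPKM values of 20 or more. Mitoxantrone was tested against DMSO in edgeR 4.0.16 (R 4.3.3; quasi-likelihood F-test, recovered size factors, no covariate, no filter), adjusted by Benjamini-Hochberg over all 4546 genes, threshold 0.05. The test was also run on simulated counts in which most genes did not change, unlike the listed genes, so that run does not cover this selection. A fitted fold of a gene with 0 to 3 reads in a group depends on the prior count, so the ratio of normalized reads with its exact 95% interval, or a bound, is given beside it.

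The members, the role lists and the rule for named genes were chosen with earlier results of these data known. The rule took, where the higher group averaged 50 counts or more, the 12 largest rises and 12 largest falls, up to 4 per role list, the 5 most abundant, genes at 0 reads in a group and the 3 nearest the fold threshold, 64 in all. Other genes with values were chosen after their values were seen. Alternatives were other scalings, a filter of 10 counts in 3 samples, a 2-fold test, DESeq2 1.42.0, the replicate block, leaving out each library, and a shorter promoter window. DESeq2 with the recovered size factors and an adjusted p of 0.01 were added after seeing the data. Overlapping genes were taken from GENCODE 29 by identifier, with 110 of the 111 genes found. Some genes of the set are not reported here by name.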

Additional observations from a re-analysis of the deposited data

How the results depend on the processing

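The 64 named genes gave 830 values across the alternatives, of which 820 kept direction and side of the threshold, 10 lost the threshold and 0 reversed. Among the 10 were NRG4 and TREX1 with the 2-fold test and with re-estimated DESeq2 size factors, and TRIM32, WASF2, ATG5 and POLR3C with the 2-fold test. With TMM, library totals, a filter of 10 counts in 3 samples and DESeq2 with re-estimated size factors, the median of the higher genes was 1.76, 1.94, 1.87 and 1.19, and that of the lower genes was -1.83 with TMM and -2.41 with that DESeq2 fit. By construction a scaling shifts all genes alike, here by -0.26, -0.08 and -0.84 for TMM, library totals and DESeq2. The TMM and re-estimated DESeq2 factors rest on listed genes only, all selected as changed, which breaks the assumption of both methods. With 1 library left out the higher median was 1.94 to 2.05. With the filter, which removes low genes, the Toll-like receptor list had 4 higher and 0 lower, growth factor signaling 5 higher and immune cell signaling 1 higher. Against a 2-fold change nucleic acid sensing had 1 higher and actin and phagocytosis 0 lower. With re-estimated DESeq2 size factors nucleic acid sensing had 1, complement 5 and growth factor signaling 4 higher. Without DMSO replicate 3 the Toll-like receptor list had 0 lower, since LBP lost its call. Within 150 bases before the start, 5 genes held the ISRE letters in place of 8, that is 6.67% beside 1.74% of all promoters. This window ends at the start. The matches of GBP3 and TRIM21 begin after the start, and that of TLR3 begins 4 bases before it and runs across it.

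Same-numbered libraries shared little deviation from their group means, with correlations of -0.07, -0.07 and 0.03 over 2622 genes. Whether the libraries were prepared in pairs cannot be told from this. The fit with the replicate block gave 2677 higher and 1869 lower over the table, and 80 and 31 in the set, so it changed no call. DESeq2 with the recovered size factors gave 2655 and 1868, and 80 and 31 in the set. Depth limits the genes with few reads: 11 had a mean under 10 in both groups, and leaving out 1 library moved 12 genes by over 1.5-fold. The selection of the table on these libraries limits every count here.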
